A study of Mus musculus with 24 samples.

Results

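The MHC class II presentation genes were 7 genes, H2-Aa, H2-Ab1, H2-Eb1, Cd74, H2-DMa, H2-DMb1 and H2-DMb2, out of 55401 genes in the files. They were chosen by name: the symbol in each transcript name was matched and the estimated counts of its transcripts were summed, which took 36 of 142604 transcripts. The libraries came from male C57BL/6 mice aged 11 weeks and were prepared in bulk from total RNA by SMART-seq2, a full-length cDNA method for low RNA input. There were 6 groups of 4 libraries: mice given the herbicide propyzamide without stimulation (naive in the labels), mice given empty vehicle without stimulation, propyzamide at 3 h after anti-CD3, vehicle at 3 h, propyzamide at 24 h and vehicle at 24 h. Anti-CD3 is an antibody to the CD3 chains of the T cell receptor complex and activates T cells. All 6 groups shared strain, sex and age, and the labels name no transgene or mutant allele. By its title the series deals with mouse T cells and a preclinical model of bowel inflammation; the tissue, any cell sorting and the doses were not given in its labels. Nothing in the labels says whether the 4 libraries of a group came from separate animals, so p-values measure the spread between these libraries.

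Class II molecules display peptides from the endosomal route to CD4 T cells. An alpha and a beta chain pair on the surface: H2-Aa and H2-Ab1 encode the chains of I-A, and H2-Eb1 encodes the beta chain of I-E, whose alpha chain is not made in the C57BL/6 strain. The invariant chain, encoded by Cd74, fills the groove of new dimers and carries them to endosomes, where proteases cut it down to a fragment called CLIP. The DM dimer of H2-DMa with a beta chain from H2-DMb1 or H2-DMb2 then exchanges CLIP for other peptides. B cells, dendritic cells and macrophages transcribe these genes together under the coactivator Ciita, interferon-gamma induces them in many other cells, and resting mouse T cells make little.

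Their promoters are known for an X box and a Y box at fixed spacing, bound by RFX and CREB family factors and by NF-Y, the complex through which Ciita acts. The letters are shown for the 4 genes whose windows held both an X piece and a Y box. The RefSeq promoter table of the GRCm38.p6 build gave a window of 300 bases, 250 before and 50 after a start, for 5 of the 7 genes. H2-Ab1 and Cd74 are named only. The motifs searched, on both strands, were the Y box letters TGATTGG, the X box piece GATGATG and the palindromic X piece TGACGTCA, chosen after reading these windows. Below, 100 bases from 120 to 21 before each RefSeq start are written 5′ to 3′ on the gene's strand, with X and Y letters in capitals.
H2-Aa, chr17:34287844-34287943, minus strand: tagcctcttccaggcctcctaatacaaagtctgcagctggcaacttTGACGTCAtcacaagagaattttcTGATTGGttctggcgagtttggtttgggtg
H2-Eb1, chr17:34305747-34305846, plus strand: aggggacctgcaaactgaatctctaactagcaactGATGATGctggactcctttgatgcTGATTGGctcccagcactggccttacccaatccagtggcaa
H2-DMb1, chr17:34153071-34153170, plus strand: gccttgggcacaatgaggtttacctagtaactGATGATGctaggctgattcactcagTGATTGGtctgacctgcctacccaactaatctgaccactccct
H2-DMb2, chr17:34145129-34145228, plus strand: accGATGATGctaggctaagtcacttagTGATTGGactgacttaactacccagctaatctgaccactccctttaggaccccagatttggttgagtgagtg

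H2-Eb1, H2-DMb1 and H2-DMb2 carried GATGATG and H2-Aa carried TGACGTCA, each upstream of TGATTGG on the same strand. The bases between the X and Y letters numbered 16 in H2-Aa, 17 in H2-Eb1 and 18 in both H2-DMb1 and H2-DMb2. The H2-DMa windows held none of these letters. Of 32851 windows of this length, TGATTGG was in 2568 (7.82%), GATGATG in 1143 (3.48%) and TGACGTCA in 588 (1.79%). An X piece lying 10 to 30 bases before a Y box was found in 15 windows (0.0457%), of which 4 belonged to the class II genes. The letters were chosen after reading the class II windows, so these 4 matches are not independent of that choice. A match describes these letters and is not evidence of a bound site.

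**Figure D1:**
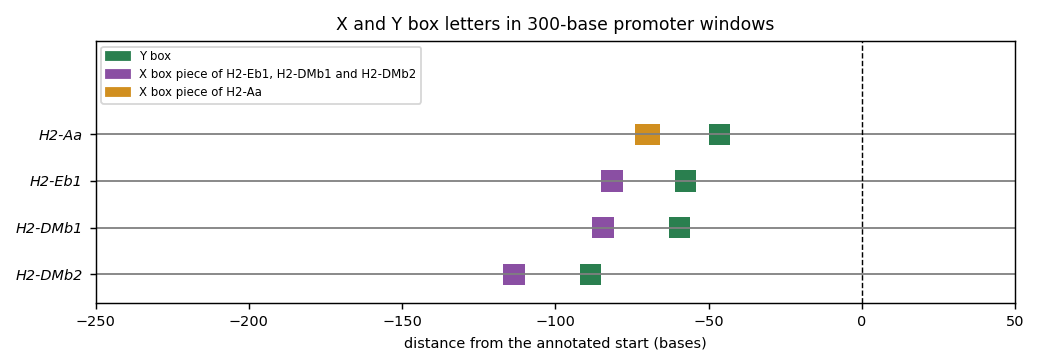
Position of the X box and Y box letters in the 300-base promoter windows of 4 class II genes, in bases from the annotated start (dashed line, 0). The Y box lies downstream of the X piece in each, with 16 to 18 bases between them.

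On GRCm38, 6 of the genes lie within the major histocompatibility complex on chromosome 17. H2-DMa spans 34119541-34139101, H2-DMb2 spans 34143307-34151555 and H2-DMb1 spans 34153072-34160230, neighbours on the plus strand. These spans are from the GENCODE annotation, whose starts differ from the RefSeq starts of the promoter windows. The letters shown for H2-DMb2, and nearly all of those for H2-DMb1, lie within the spans. The classical chains lie further along, H2-Ab1 at 34257689-34269419 (plus), H2-Aa at 34282744-34287823 (minus) and H2-Eb1 at 34305867-34316674 (plus). Cd74 lies apart, on chromosome 18 at 60803848-60812652 (plus). H2-DMb1 and H2-DMb2 are close paralogs whose reads the counting can split unevenly, so their separate values are uncertain.

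Total estimated counts ran between 438750 and 2072033 in 23 libraries and reached 9812458 in propyzamide 24 h replicate 3. Counts on named protein-coding genes were 17960 to 160739 in the 23 libraries and 2938155 in the deepest. They made up 3.75% to 9.63% of all counts in the 23 libraries and 29.9% in the deepest. A single gene model, Gm10800, took 41.9% to 50.3% in the 23 libraries and 20.8% in the deepest. The 7 genes took 18 counts in propyzamide 3 h replicate 3, the shallowest library, 35970 in the deepest and 199 to 2763 in the other 22. These outlying libraries belong to the 2 groups of a comparison that gave calls, so that comparison is also given without both. Over the 23 libraries outside the deepest, the 10 T cell markers had between 38 counts (Lat) and 167 (Lck) each, with 52 for Cd3e and 44 for Trac, and the 14 B cell markers between 94 (Blk) and 1992 (Ighm). The i5 index in the library names was shared by both unstimulated groups and vehicle 3 h, and a second one by propyzamide 3 h and both 24 h groups; the labels do not say that it marks a batch. Propyzamide 24 h against 3 h, vehicle 3 h against unstimulated, and propyzamide against vehicle in unstimulated mice and at 24 h lie within 1 index, and in the other comparisons index and group cannot be told apart.

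Among the 7 genes, transcripts of the surface chains and of Cd74 were far more abundant than those of DM. Levels between genes are given in TPM, the transcript abundance scale that divides by length. H2-Ab1 led with a median of 159.5 TPM over 24 libraries and was the highest of the 7 in 23 of 24 libraries; Cd74 led in propyzamide 3 h replicate 3. Cd74 had a median of 78.4 TPM, H2-Aa 77.6 TPM and H2-Eb1 61.8 TPM. The chaperone genes followed with medians of 11.9 TPM for H2-DMb2, 8.74 TPM for H2-DMa and 5.64 TPM for H2-DMb1. As a share of the summed TPM of the 7, H2-Ab1 took 37.6% ± 4.59, Cd74 20.9% ± 3.03, H2-Aa 18.7% ± 2.30 and H2-Eb1 15.4% ± 2.51 (SD, n = 24). The 3 DM genes took 3.43% ± 1.33 for H2-DMb2, 2.79% ± 1.77 for H2-DMa and 1.26% ± 0.841 for H2-DMb1. The order of the high and low genes was thus alike in nearly every library, and H2-DMb1 was the lowest of the 7 in 20 of 24.

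**Figure D2:**
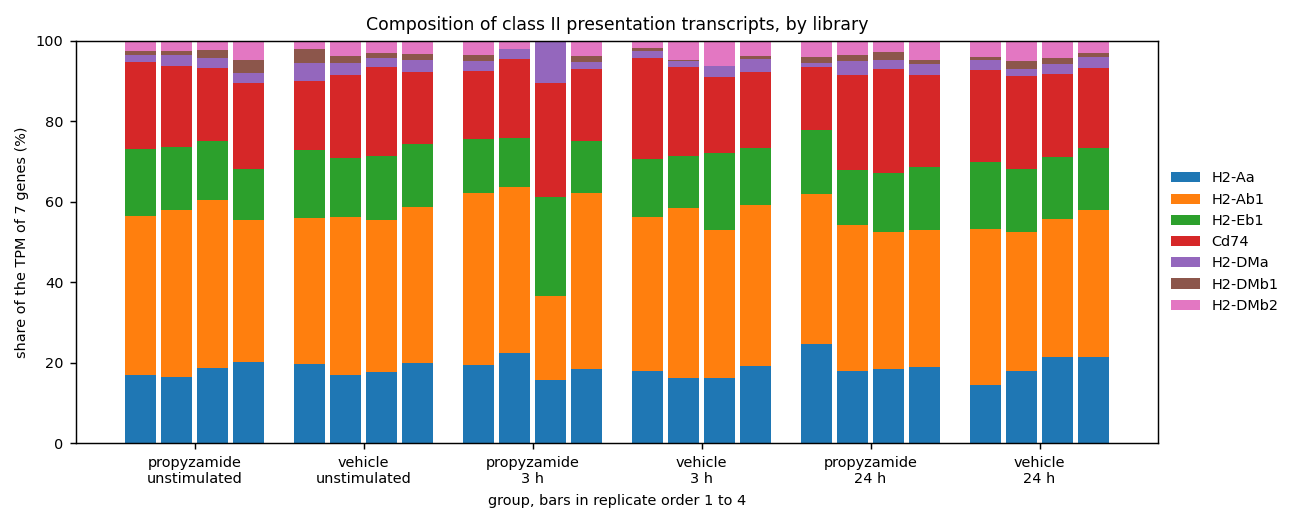
Share of the summed TPM of the 7 genes in each library (percent, 1 bar a library, 6 groups of 4 in replicate order). H2-Ab1 is the widest band in 23 of 24 bars; propyzamide 3 h replicate 3, with 18 counts for the 7 genes, stands apart.

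Most counts of each gene fell on 1 transcript model, less so for Cd74 and H2-Eb1. The main model took 96.3% of the counts of H2-Aa, 96.3% of H2-Ab1, 93.8% of H2-DMa, 94.2% of H2-DMb1 and 93.1% of H2-DMb2. For Cd74, the model of 1224 bases took 76.8% and the longer protein-coding model of 1410 bases 21.2%, or 16.9% without the deepest library. The longer Cd74 model took 24.3% ± 16.9 in propyzamide and 19.0% ± 2.89 in vehicle libraries at 24 h, and 9.89% ± 16.7 in propyzamide and 10.2% ± 12.0 in vehicle libraries at 3 h (SD, n = 4 each), with wide overlap. For H2-Eb1, 62.8% of counts went to a model annotated for nonsense-mediated decay and 14.0% and 4.70% to its protein-coding models. The share of the decay model ran from 44.6% to 86.8% by library, and the counting can split reads unevenly between models of 1 gene. The summed gene count may thus not measure coding mRNA alone.

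The classical alpha and beta chains of I-A are given first, in CPM scaled by the trimmed mean of M-values method (TMM), a depth-normalized count for comparing libraries. H2-Aa had 145, 83.7, 172 and 208 CPM in unstimulated propyzamide libraries, against 119.7, 195, 78.4 and 181 CPM in unstimulated vehicle libraries. At 3 h it had 132, 159, 6.17 and 144 CPM with propyzamide, against 118, 77.6, 36.8 and 154 CPM with vehicle, and at 24 h 221, 305, 199 and 283 CPM with propyzamide, against 104, 288, 268 and 144 CPM with vehicle. Propyzamide and vehicle libraries overlapped at every stage, and within propyzamide all 4 libraries at 24 h lay above all 4 at 3 h. H2-Ab1, its partner and the most abundant of the set, had 349, 214, 409 and 394 CPM in unstimulated propyzamide libraries, against 234, 486, 182 and 379 CPM in unstimulated vehicle libraries. At 3 h the values were 316, 309.9, 8.23 and 367 CPM with propyzamide, against 292, 213, 102 and 324 CPM with vehicle, and at 24 h 369.6, 662, 385 and 541 CPM with propyzamide, against 294, 568, 459 and 272 CPM with vehicle. Again the lowest value was that of propyzamide 3 h replicate 3, the library with 18 counts for the set, and treatments overlapped at every stage.

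H2-Eb1, the I-E beta chain, was the one gene of the 7 whose 24 h libraries lay above its 3 h libraries in both treatments. It had 127, 71.1, 130.4 and 134 CPM in unstimulated propyzamide libraries, against 99.1, 152, 67.1 and 129 CPM in unstimulated vehicle libraries. At 3 h it had 82.5, 86, 8.23 and 91.8 CPM with propyzamide, against 91.7, 59.3, 40.7 and 95.9 CPM with vehicle, and at 24 h 124, 213, 145 and 199 CPM with propyzamide, against 108, 239, 162 and 96.3 CPM with vehicle. Every 24 h library lay above every 3 h library of the same treatment, narrowly in vehicle, where the lowest 24 h value was 96.3 CPM and the highest 3 h value 95.9 CPM. Its partner gene in other strains, H2-Ea, had 13 counts in 4 libraries and was not tested.

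Cd74, the invariant chain, had 207, 105, 180 and 248 CPM in unstimulated propyzamide libraries, against 118, 266, 111 and 192 CPM in unstimulated vehicle libraries. At 3 h its values were 129.8, 159, 12.3 and 155 CPM with propyzamide, against 197, 115, 53.9 and 164 CPM with vehicle, and at 24 h 168, 439.8, 306 and 368 CPM with propyzamide, against 182, 415, 281 and 155 CPM with vehicle. The propyzamide libraries at 24 h all exceeded those at 3 h, while the vehicle libraries at the 2 times overlapped. As a share of all counts of the set, Cd74 varied little: 21.4 ± 2.18% in propyzamide and 21.0 ± 2.05% in vehicle libraries without stimulation, 22.9 ± 7.12% and 22.7 ± 3.01% at 3 h, and 23.4 ± 4.10% and 23.1 ± 1.75% at 24 h (SD, n = 4 each, propyzamide then vehicle). Over 9 comparisons the group means differed by 0.175 to 2.06 percentage points, with two-sided exact permutation p of 0.200 to 1, all 1 after adjustment, where 4 against 4 libraries allow no p below 0.0286.

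The DM genes, which edit the bound peptide, were counted less deeply, with 535 counts for H2-DMa, 1013 for H2-DMb2 and 312 for H2-DMb1 over the 23 libraries outside the deepest. H2-DMa had 15.03, 12.6, 21.7 and 25.7 CPM in unstimulated propyzamide libraries, against 25.6, 35.1, 9.73 and 25.5 CPM in unstimulated vehicle libraries. At 3 h it had 16.8, 10.4, 2.06 and 13.3 CPM with propyzamide, against 12.1, 6.85, 6.57 and 22.7 CPM with vehicle, and at 24 h 11.4, 59.6, 23.1 and 37.4 CPM with propyzamide, against 17.1, 28.4, 29.7 and 18.9 CPM with vehicle. Treatments overlapped at every stage, and so did 24 h and 3 h in propyzamide, where replicate 1 at 24 h, at 11.4 CPM, lay below 2 of the 3 h libraries. H2-DMb1 ranged 3.34 to 22.3 CPM in unstimulated propyzamide and 6.15 to 17.97 CPM in unstimulated vehicle libraries, 0 to 14.9 and 0 to 5.19 CPM at 3 h, and 13.03 to 25.5 and 5.46 to 28.4 CPM at 24 h (propyzamide then vehicle). The 4 vehicle libraries at 3 h, 1 of them at 0 counts, lay below all 4 unstimulated vehicle libraries. They held 8.95 estimated counts of H2-DMb1 in all. H2-DMb2 ranged 16.2 to 67.02 CPM in unstimulated propyzamide and 17.3 to 60.04 CPM in unstimulated vehicle libraries, 0 to 38.5 and 17.3 to 37.9 CPM at 3 h, and 40.5 to 94.5 and 27.5 to 106 CPM at 24 h (propyzamide then vehicle). In propyzamide its 24 h libraries all lay above its 3 h libraries. H2-DMb1 made up 23.6 ± 14.5% of the counts of both DM beta genes in propyzamide and 30 ± 7.96% in vehicle libraries without stimulation, 22.4 ± 12.3% and 10.2 ± 11.1% at 3 h, and 24.7 ± 9.75% and 21.3 ± 5.70% at 24 h (SD, n = 4 each but 3 for propyzamide at 3 h, where 1 library had no such counts; propyzamide then vehicle). A library's limit for a count of 0, taken as 3 counts, was 6.17 CPM in the shallowest library and 0.0937 CPM in the deepest.

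**Figure D3:**
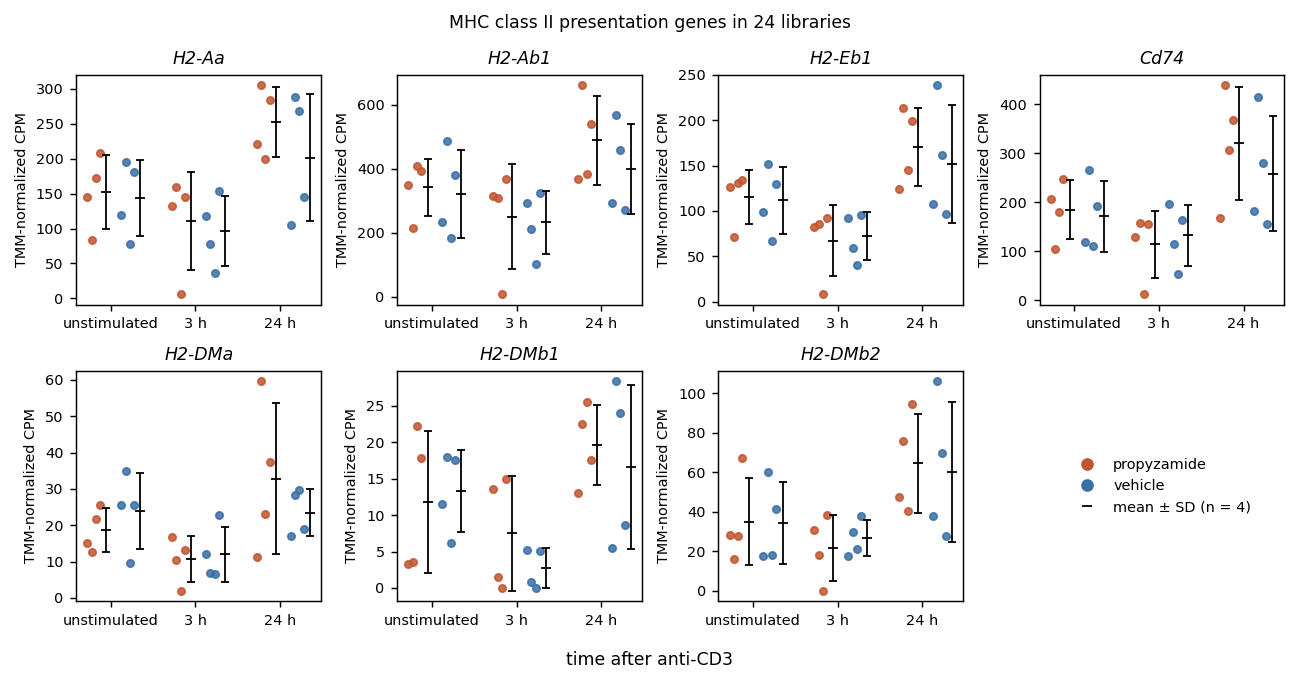
TMM-normalized CPM of each of the 7 genes in 24 libraries, by stage after anti-CD3, with propyzamide left of vehicle (points, libraries; bars, mean ± SD, n = 4). Propyzamide 24 h has the highest mean in all 7 panels, and 1 propyzamide library at 3 h lies near 0 in most.

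The order of the 6 group means was similar across genes. For each of the 7, both 3 h groups were the lowest and propyzamide 24 h the highest, and the highest mean was 2.10 times the lowest for H2-Ab1 and up to 7.16 times for H2-DMb1. The lowest H2-DMb1 group, vehicle at 3 h, held 8.95 estimated counts of it in all. Summed over the 7, the level was 860 ± 252 CPM in propyzamide and 819 ± 333 CPM in vehicle libraries without stimulation, 582 ± 366 and 575 ± 246 CPM at 3 h, and 1349 ± 378 and 1109 ± 459 CPM at 24 h (SD, n = 4 each, propyzamide then vehicle). All 5 neighbouring pairs in this order overlapped between libraries, for the sum and for each gene. In bulk libraries, fewer cells of a type and less RNA per cell cannot be told apart.

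Propyzamide was first set against vehicle at the same stage, the question named in the series title. None of the 7 genes passed the test at any stage (edgeR quasi-likelihood test, Benjamini-Hochberg adjusted p of 0.05 or less over 3799 genes), and no gene of the table did, a background of 0% in unstimulated mice, 0% at 3 h and 0% at 24 h. At an unadjusted p under 0.05, 128 genes stood out in unstimulated mice, 114 at 3 h and 388 at 24 h, none of them among the 7. In unstimulated mice the 7 log2 differences, propyzamide over vehicle, ran from -0.34 to 0.11 (adjusted p 1), with a median of 0.04 beside 0.16 over all named protein-coding genes tested. At 3 h they ran from -0.21 to 1.77 (adjusted p 1), with a median of -0.06 beside -0.07; the highest, H2-DMb1, was 1.77 ± 0.88 (SE) with an unadjusted p of 0.0541. The vehicle libraries at 3 h held 8.95 estimated counts of H2-DMb1 in all. At 24 h all 7 estimates were positive, 0.10 to 0.49 (adjusted p 0.708 to 0.948), with a median of 0.30 beside 0.32 over named genes. The median of the 7 at 24 h was thus close to that of named genes, and the standard errors, 0.43 or more, exceeded it, so changes of this size were not detectable with 4 libraries a group.

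In vehicle mice, the time after anti-CD3 was compared next. At 3 h against unstimulated all 7 estimates were negative, -2.41 to -0.37 on the log2 scale, with adjusted p of 0.448 to 0.998, so none of the 7 passed where 0.29% of the table (11 genes) did. H2-DMb1 was the lowest at -2.41 ± 0.84 (SE, unadjusted p 0.00751, adjusted p 0.448), and its 3 h libraries lay below all unstimulated ones, as did those of 3.79% of the genes tested. Those 3 h libraries held 8.95 estimated counts of H2-DMb1 in all, so its changes against that group rest on few counts. At 24 h against unstimulated 6 of 7 estimates were positive, -0.04 to 0.80, with adjusted p of 0.821 to 0.991, where 0.421% of the table (16 genes) passed. At 24 h against 3 h all 7 were higher by estimate, 0.77 to 2.70, and none passed (adjusted p 0.177 to 0.543), nor did any gene of the table (0%), of which 462 had an unadjusted p under 0.05. Of those 462, 3 were class II genes: H2-DMb1 at 2.70 ± 0.86, H2-Eb1 at 1.08 ± 0.44 and H2-Aa at 1.06 ± 0.51 (log2 ± SE, unadjusted). The libraries of H2-Eb1 and H2-DMb1 at 24 h lay above all those at 3 h on the TMM scale, where 5.16% of genes did so, and on CPM of named protein-coding counts H2-Eb1 alone did, with 3.87% of genes. The median of the 7 was 1.06, beside 0.27 over named genes.

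In propyzamide mice, 3 of the 7 genes rose at 24 h against 3 h: Cd74 by 1.48 ± 0.49 on the log2 scale (SE, adjusted p 0.0419), H2-DMa by 1.53 ± 0.52 (adjusted p 0.0435) and H2-Eb1 by 1.31 ± 0.44 (adjusted p 0.0423, edgeR). In this comparison 15.2% of the table passed, 8.61% upward, so such a call was common here, and the 3 ranked 460, 509 and 473 of 3799 by p. Mean levels at 24 h against 3 h were 320.5 ± 116 against 114 ± 69.0 CPM for Cd74, 32.9 ± 20.8 against 10.7 ± 6.31 CPM for H2-DMa and 170.2 ± 42.8 against 67.2 ± 39.5 CPM for H2-Eb1 (SD, n = 4 each). The other 4 had positive estimates that did not pass: H2-DMb2 1.48 ± 0.57 (adjusted p 0.0719), H2-Aa 1.17 ± 0.51 (adjusted p 0.104), H2-DMb1 1.23 ± 0.69 (adjusted p 0.201) and H2-Ab1 0.96 ± 0.52 (adjusted p 0.189). The median of the 7 was 1.31, beside 0.73 over the 2464 named genes, of which 72.9% were positive, and 0.15 over the whole table. Separated groups were seen for 5 genes, H2-Aa, H2-Ab1, H2-Eb1, Cd74 and H2-DMb2, with all 24 h libraries above all 3 h libraries on the TMM scale, as did 12.3% of the table; on CPM of named protein-coding counts H2-Eb1 alone did, as did 6.58%.

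These calls were close to the threshold, and several alternatives ended them without turning any direction. Without the shallowest and the deepest library no class II gene passed (lowest adjusted p 0.0859) and 1.67% of the table did; the estimates were then 1.19 for Cd74, 1.47 for H2-DMa and 1.09 for H2-Eb1. Leaving out any 1 of propyzamide 3 h replicates 1, 2, 3 and 4 or 24 h replicates 2 and 4 ended all 3 calls, at log2 changes of 1.05 to 1.59 for Cd74, 1.03 to 1.73 for H2-DMa and 0.90 to 1.40 for H2-Eb1; without 24 h replicate 3 Cd74 was 1.57 (adjusted p 0.0505). The lowest estimates for Cd74 and H2-Eb1 were those without propyzamide 3 h replicate 3, which also gave 1.20 for H2-DMa (adjusted p 0.121 to 0.148 for the 3). Relative log expression scaling put the median of all genes at 0.48, against 0.15 with TMM, and called 694 genes higher and 197 lower, against 327 higher and 252 lower with TMM, and 5 of the 7 class II genes passed under it. None passed in a fit of named protein-coding genes alone, at 1.02 for Cd74, 1.06 for H2-DMa and 0.87 for H2-Eb1 (lowest adjusted p 0.176). A fit of the 2 groups alone gave larger estimates, 1.90 for Cd74, 1.94 for H2-DMa and 1.72 for H2-Eb1, that did not pass (lowest adjusted p 0.0693). All 7 estimates stayed above 0 in every alternative run for this comparison.

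Set against unstimulated propyzamide libraries, the same genes gave no call. At 3 h all 7 estimates were negative, -0.76 to -0.44 (adjusted p 0.453 to 0.756), where 0.711% of the table (27 genes) passed, with a median of -0.59 beside -0.42 over named genes. At 24 h all 7 were positive, 0.52 to 0.89 (adjusted p 0.457 to 0.681), where 0.079% (3 genes) passed, with a median of 0.73 beside 0.27. These comparisons share their libraries with those above. The step to 24 h was compared between treatments with a contrast added after the data were seen. The difference between the 24 h against 3 h changes, propyzamide minus vehicle, was 0.51 ± 0.68 for Cd74, 0.55 ± 0.74 for H2-DMa and 0.24 ± 0.61 for H2-Eb1 (log2 ± SE). The i5 index differs between the vehicle libraries at 3 h and 24 h but not between the propyzamide ones. This contrast therefore cannot tell propyzamide and index apart. Adjusted p for the 7 genes was 0.839 to 0.982 and 0% of the table passed, with 233 genes at an unadjusted p under 0.05. Interaction terms of propyzamide with anti-CD3 against unstimulated were -0.30 to 1.89 at 3 h and 0.09 to 0.84 at 24 h, with adjusted p of 0.997 or more and 0% of the table called in either. The rise in propyzamide mice is therefore not shown to differ from the change in vehicle mice.

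**Figure D4:**
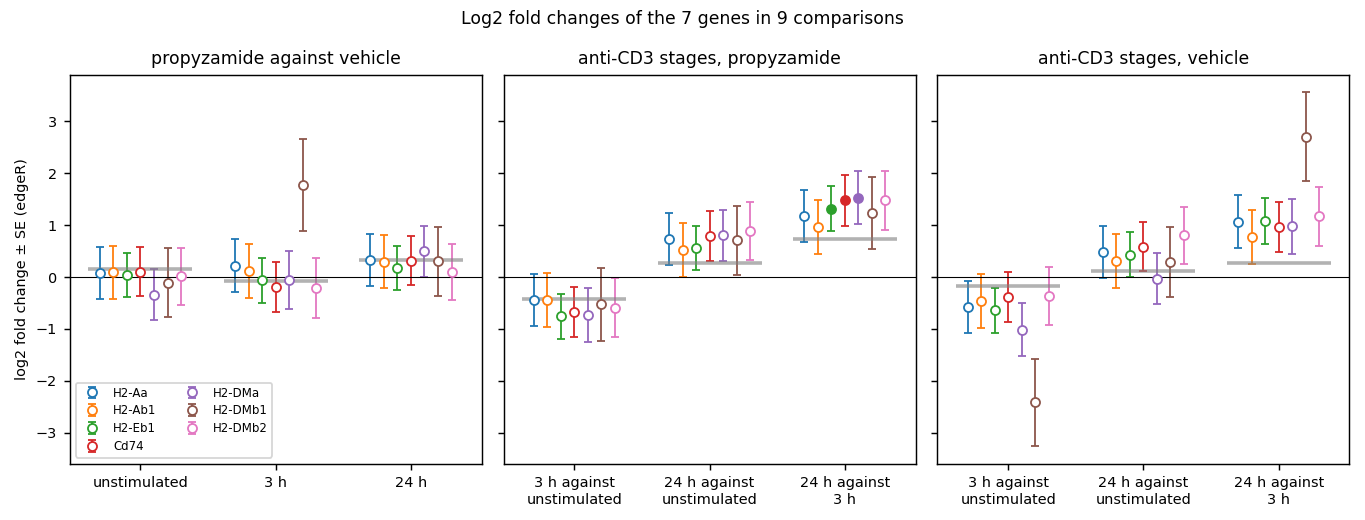
Log2 fold change ± SE (edgeR) of each gene in 9 comparisons: propyzamide against vehicle at 3 stages, and anti-CD3 stages within each treatment; grey bars, median of all named genes tested; filled points, adjusted p of 0.05 or less. Only H2-Eb1, Cd74 and H2-DMa in propyzamide 24 h against 3 h are filled.

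The rest of the class II pathway was read in the comparison that gave calls, propyzamide 24 h against 3 h, against the same background of 8.61% called higher. Of the other class II chains, both genes that could be tested rose, out of 4 listed: H2-Ob by 2.34 ± 0.59 (adjusted p 0.0180) and H2-Oa by 1.98 ± 0.66 (adjusted p 0.0423, edgeR), the chains of DO, which restrains DM. H2-Ob averaged 42.1 ± 24.8 CPM at 24 h against 7.60 ± 5.43 CPM at 3 h; neither gene passed without the 2 outlying libraries. Ciita, the coactivator, rose by 2.31 ± 0.60 (adjusted p 0.0187), with 28.6 ± 9.68 CPM at 24 h against 4.89 ± 4.67 CPM at 3 h (SD, n = 4 each), and it also passed without the outlying libraries. In vehicle mice Ciita averaged 14.9 ± 8.29 CPM at 24 h against 11.0 ± 4.24 CPM at 3 h, 0.46 ± 0.59 on the log2 scale (adjusted p 0.764), and the difference of the changes, propyzamide minus vehicle, was 1.85 ± 0.84 (adjusted p 0.778). The i5 index enters that difference as well. Ciita was the only 1 of 8 listed regulators with enough counts to test.

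Of 14 endosomal processing genes, 11 were tested and 5 rose, with none lower and a median log2 change of 1.36. Lgmn, the protease that starts invariant chain cleavage, rose by 2.24 ± 0.50 (adjusted p 0.00916), and Ctss, the cathepsin that trims it to CLIP, by 1.36 ± 0.45 (adjusted p 0.0410). The others were the lysosomal proteases Ctsb at 2.21 ± 0.61 (adjusted p 0.0243), Ctsc at 1.46 ± 0.45 (adjusted p 0.0323) and Unc93b1, a chaperone of endosomal Toll-like receptors, at 2.18 ± 0.47 (adjusted p 0.00780, all edgeR). Without the 2 outlying libraries Unc93b1 alone passed. Interferon-gamma signalling had 5 of 8 genes tested and 2 higher, among them the kinase Jak1 by 2.53 ± 0.55 (adjusted p 0.00780, edgeR); without the 2 libraries Jak1 alone passed. Ifng itself had 8 counts in 3 libraries and was not tested.

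Class I presentation, the parallel pathway for cytosolic peptides, had 8 of 9 genes tested and 2 higher: the heavy chain H2-K1 by 1.98 ± 0.44 (adjusted p 0.00842) and its light chain B2m by 1.42 ± 0.43 (adjusted p 0.0306, edgeR). H2-K1 averaged 209 ± 41.5 CPM at 24 h against 51.9 ± 30.5 CPM at 3 h. The peptide transporter gene Tap1 rose in vehicle mice at 24 h against unstimulated by 2.89 ± 0.66 (adjusted p 0.0417, edgeR), with 23.4 ± 6.58 CPM against 2.97 ± 2.06 CPM. Tap1 was the 1 gene called of the 8 there, beside 0.421% of the table (16 genes). Its unstimulated mean lay near the limit of 3 counts, 1.31 to 2.48 CPM in those libraries. The vehicle libraries at 24 h carry a different i5 index from the unstimulated ones, and its part in the rise was not tested. Of 6 co-stimulation genes only Cd274 could be tested, at -0.49 in propyzamide 24 h against 3 h, and it did not pass.

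B cells carry class II, and their markers followed the same order of stages. On CPM of named protein-coding counts, the 7 genes summed to 11940 ± 3292 in propyzamide and 12310 ± 4590 in vehicle libraries without stimulation, 9663 ± 5857 and 9551 ± 3805 at 3 h, and 17080 ± 4707 and 16030 ± 5756 at 24 h (SD, n = 4 each, propyzamide then vehicle). The 14 B cell markers summed to 3360 ± 1103 and 3544 ± 1405 without stimulation, 2077 ± 1227 and 2503 ± 269 at 3 h, and 6873 ± 2373 and 5522 ± 1911 at 24 h, in the same order. Both sums were lowest at 3 h and highest at 24 h in either treatment. Of 13 B cell markers tested, 6 rose in propyzamide 24 h against 3 h, among them Cd79b by 2.35 ± 0.53 (adjusted p 0.0101), Cd79a by 2.31 ± 0.53 (adjusted p 0.0111) and Ighm by 2.38 ± 0.49 (adjusted p 0.00659, edgeR), with a median of 1.80, beside 8.61% of the table called higher. Without the 2 outlying libraries 5 of the 13 passed, beside 1.67% of the table. Counted per B cell marker count, the 7 genes had 3.61 ± 0.639 counts in propyzamide and 3.53 ± 0.698 in vehicle libraries without stimulation, 4.26 ± 1.48 and 3.76 ± 1.37 at 3 h, and 2.55 ± 0.318 and 2.90 ± 0.154 at 24 h, in the same order; this ratio was lowest at 24 h. The part of B cells in the class II values was not tested.

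Markers of T cells, dendritic cells, macrophages and epithelium were read in the same way. Without stimulation, T cell markers summed to 430 ± 94.4 CPM of named counts in propyzamide and 382 ± 107 in vehicle libraries (SD, n = 4 each). In the same order, the sums were 902 ± 88.9 and 1275 ± 411 for dendritic cells and 1439 ± 558 and 1344 ± 239 for macrophages and monocytes. Those for epithelium were 6074 ± 4200 and 3531 ± 381. The 10 T cell markers summed to 872 ± 166 CPM of named counts in propyzamide and 706 ± 162 in vehicle libraries at 24 h, against 297 ± 169 and 485 ± 165 at 3 h; of 2 tested markers the kinase gene Lck was called, at 3.32 ± 0.55 (adjusted p 0.00147, edgeR) in propyzamide 24 h against 3 h. Dendritic cell markers summed to 1763 ± 509.6 and 1633 ± 326 at 24 h, against 1037 ± 633 and 1275 ± 378 at 3 h, mostly from Ccr7, which B and T cells also express. Their defining genes were sparse, with 39 counts for Zbtb46, 80 for Xcr1 and 16 for Clec9a outside the deepest library. Macrophage and monocyte markers summed to 1340 ± 441 and 1033 ± 235 at 24 h, against 1107 ± 564 and 874 ± 234 at 3 h, and intestinal epithelial markers to 2459 ± 3559 and 335 ± 204, against 2445 ± 1466 and 2855 ± 1783 (propyzamide then vehicle throughout). The epithelial mean in propyzamide at 24 h rested on replicate 3, the deepest library, at 7782, with 619.9, 374 and 1062 in the others, against 4036, 2050, 612.5 and 3080 at 3 h. None of the tested dendritic (1 of 10), macrophage (4 of 12), epithelial (11 of 14) or plasma cell (4 of 7) markers passed in propyzamide 24 h against 3 h, and the part of these cells in the class II values was not tested.

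**Figure D5:**
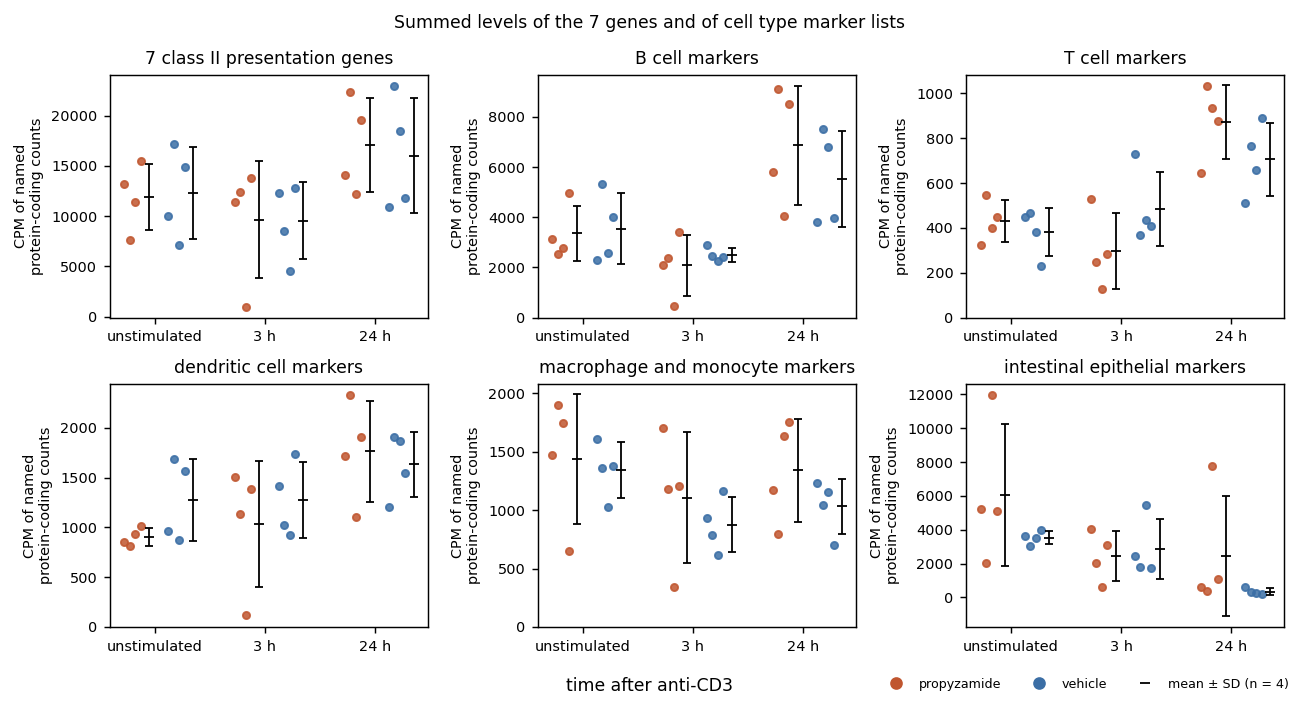
Summed CPM of named protein-coding counts for the 7 class II genes and 5 lists of cell type markers, by stage, with propyzamide left of vehicle (points, libraries; bars, mean ± SD, n = 4). Mean B cell, T cell and dendritic cell marker sums are highest at 24 h in both treatments, as is the class II sum, while 7 of the 8 epithelial values at 24 h lie at 1062 or below and 1 propyzamide library is at 7782.

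Across the 24 libraries the 7 genes varied together, with Spearman correlations of 0.737 to 0.943 between pairs, and 0.687 to 0.940 without the 2 outlying libraries. The points share library depth, scaling and the grouping, and the correlation is given as a description. Libraries also differ in the share of counts on named protein-coding genes, and its part in the correlation was not tested. Other genes were compared with the sum of 4 of the 7, the DM genes being left out. The nearest, among 2457 named genes tested, were the ribosomal protein gene Rpl6 (Spearman 0.934) and Prkar1a, a regulatory subunit of protein kinase A (0.922). The ribosomal protein genes Rpl29 (0.917) and Rps9 (0.914) and the lymphocyte GTPase gene Gimap6 (0.911) came next. The median over all candidates was 0.313, and 34.1% lay above 0.5. The B cell gene Cd79a ranked 82 and Ciita ranked 202.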

How the data were processed

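SMART-seq2 libraries were pseudoaligned with kallisto to GRCm38, per the submitters' processing notes; the sources used here give no version or setting. Per the file headers, the authors deposited for each transcript an estimated count, a TPM value (abundance per effective length) and an effective length (not used). Estimated counts were summed by gene and rounded to whole numbers for testing. The test was the edgeR 4.0.16 quasi-likelihood test (R 4.3.3, limma 3.58.1) with TMM scaling, its default filter on low counts (3799 genes kept), 1 coefficient a group over 24 libraries and Benjamini-Hochberg adjustment, called at 0.05; the common biological coefficient of variation was 46.4%. Per-library TMM-normalized CPM use the rounded counts, and CPM of named protein-coding counts use the unrounded ones. Procedures were tested on simulated data. DESeq2 1.42.0, limma-voom, other scalings, filters, gene sets, single libraries left out and, added after seeing the data, both outlying libraries left out and the difference-of-times contrast were alternatives. Genes named were the 7, members of the pathway and marker lists that passed the test, defining markers, and the 5 nearest by Spearman correlation. The 7 genes and all lists were chosen with earlier results of these data known. Values of 2 list members are not reported here. The SD and SE values include the spread between libraries. The limit of 3 counts covers counting error only. Replicates were numbered in record order and are not paired.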

Additional observations from a re-analysis of the deposited data

Results flagged for a closer look

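The 48 sets of 4 libraries examined covered each gene and the Cd74 share of the counts of the 7, in 6 groups. Of these 48, 3 held a library far from the other 3. The rule was Dixon's 95% critical value for the gap over the range, which chance meets in about 1 of 20 sets. H2-Ab1, the I-A beta chain, had 8.23 TMM-normalized CPM in propyzamide 3 h replicate 3, against 309.9 to 367 CPM in the other libraries of that group. H2-Eb1, the I-E beta chain, had 8.23 CPM in the same library, against 82.5 to 91.8 CPM in the others. That library held 18 counts for the 7 genes, 0.100% of its named protein-coding counts, against 0.459% to 2.30% in the other 23. H2-Eb1 also had 71.1 CPM in propyzamide unstimulated replicate 2, against 127 to 134 CPM in the others of that group.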

How the results depend on the processing

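In propyzamide 24 h against 3 h, the count of class II genes called, 3 with the main test, was 5 with relative log expression scaling, 5 with DESeq2, 4 with limma-voom, 1 without a filter on low counts, 0 on named protein-coding genes only, 0 with only the groups compared and 0 without the 2 outlying libraries. Leaving out 1 library at a time gave 0 to 3. The cause was not tested. Genes called in the whole table numbered 579 in the main test and 64 to 976 over these 15 alternatives. In the other 10 comparisons and interactions, 166 fits called none of the 7 genes; counts over the table ran 4 to 57 against 11 in vehicle 3 h against unstimulated, 1 to 64 against 16 in vehicle 24 h against unstimulated, 0 to 67 against 27 in propyzamide 3 h against unstimulated, 0 to 84 against 3 in propyzamide 24 h against unstimulated, and at most 77 against 0 in the rest. Of 1264 values of single genes under an alternative, 1229 kept direction and side of the threshold, or moved by less than 1 standard error where not called, 30 lost the call, 5 gained it and 0 reversed. No paired analysis was possible because the replicate numbers come from record order and pair no libraries. Depth limits the DM genes most, with 312 counts for H2-DMb1 outside the deepest library, and the labels give neither tissue nor cell sorting.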

Other observations

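Prkar1a was the gene second in likeness to the class II sum without the DM genes. It was also 1 of the 15 promoter windows, out of 32851, that hold an X piece 10 to 30 bases before a Y box. Its Spearman correlation with the sum was 0.922 over 24 libraries and 0.910 without the 2 outlying libraries. Besides the class II genes, the other windows of that kind belonged to Rpl13, Clasp2, Ift57, Dusp8, Thada, Gla, Hnrnph2 and the 3 genes Tmsb15l, Tmsb15b1 and Tmsb15b2. Prkar1a was singled out after its values were seen, and the overlap was not tested.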
